A study of Solanum lycopersicum with 12 samples.

Results

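Gibberellin and cytokinin genes of tomato fruit were taken from the deposited table by the wording of their gene descriptions. A gene entered when its description named gibberellin, gibberellic acid, DELLA, cytokinin, zeatin or a two-component response regulator, and 209 of 35882 features did. Of these, 6 with a transcription factor family name that contains MYB in any case were left out, as was 1 further locus, and 202 remained, 88 of them named for gibberellin and 114 for cytokinin or its response regulators. At least 10 counts in 3 or more libraries were found for 76 of the 202, which comprised 26 gibberellin genes and 50 cytokinin genes. The 126 others were not analysed further, and 70 of them had no count in any library. The gene nearest to that minimum from above had 12 counts in its third-highest library, and the 3 nearest from below had 9. In all 12 libraries, 57 of the 76 genes reached 10 counts. In at least 1 group, 12 of the 76 were under 10 counts in every library and so entered through the other groups.

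Transcripts were measured by RNA sequencing in fruit pericarp, the fleshy wall of the fruit. The 4 groups were the mutant cr at breaker, WT at breaker, cr at mature green and WT at mature green, with 3 libraries in each. Mature green fruit are full-sized and unripe, breaker fruit show the first colour change, and the labels number these stages 35 and 38 without saying what the numbers count. The labels call the WT line A, and they name neither the gene mutated in cr nor a cultivar, a treatment or the number of fruit in a library. Nothing in them states that replicate libraries were made from different plants or fruit. A p-value here therefore reflects only how far these libraries differ among themselves, and that spread may be technical.

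Gibberellins are diterpenoid hormones. GA 20-oxidases catalyse late steps of their synthesis, and GA 2-oxidases inactivate them. The receptor GID1 binds the hormone and then the DELLA proteins, repressors of growth responses that are degraded as a result. Cytokinins are adenine derivatives: LOG enzymes release the active bases, cytokinin dehydrogenases break them down irreversibly, and O-glycosyltransferases store them as conjugates. The signal passes from histidine kinase receptors through phosphotransfer proteins to type-B response regulators, which are transcription factors, and type-A response regulators are early targets that dampen the response. In tomato, both hormones are known mainly for fruit set and the growth of young fruit.

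Library totals ran from 17703054 to 19426192 counts. The ripening markers rose from mature green to breaker in both genotypes and reached lower levels in cr. The polygalacturonase gene PG2A had 239 to 1059 CPM (counts scaled to library size) in cr at breaker and 5866 to 8717 CPM in WT at breaker. At mature green it had 0.882 to 8.29 CPM in cr and 16.2 to 75.2 CPM in WT. PSY1, E8 and EXP1 were also lower in every cr breaker library than in every WT breaker library. Within cr at breaker, these markers were lowest in library 1. PG2A stood there at 239 CPM against 675 and 1059 CPM in libraries 2 and 3. For PSY1 the values were 3080 CPM against 5869 and 5777 CPM, and for E8 3529 CPM against 7203 and 6653 CPM. The seed list held 160 genes described as oleosin, late embryogenesis, vicilin, legumin or seed storage proteins. Whether their transcripts came from seed was not tested. It summed to 4388 to 6165 CPM in cr at breaker against 2775 to 2995 CPM in WT at breaker, and to 7430 to 8755 CPM in cr at mature green against 6860 to 10275 CPM in WT at mature green. The 36 chlorophyll a-b binding genes summed to 855 to 1484 CPM in cr at breaker against 467 to 565 CPM in WT at breaker, and to 2074 to 2478 CPM in cr at mature green against 1799 to 2209 CPM in WT at mature green. The 68 xylem and lignin genes summed to 306 to 379 CPM in cr at breaker against 305 to 349 CPM in WT at breaker, and to 466 to 568 CPM in cr at mature green against 546 to 619 CPM in WT at mature green. These sums moved with stage, and those of the seed and chlorophyll lists also with genotype at breaker. Within cr at breaker, the chlorophyll sum was highest in library 1, at 1484 CPM against 919 and 855 CPM. The part of these lists, and of the lower ripening markers of that library, in the results that follow was not tested.

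The gibberellin genes comprised 3 described as GA 20-oxidases or alike, 5 GA 2-oxidases, 3 receptors, 3 described as DELLA or DELLA-like proteins, 9 gibberellin-regulated (GASA) peptide genes and 3 GRAS factors named after the rice protein CIGR. Of the 3 described as DELLA or DELLA-like, only Solyc11g011260 had the DELLA N-terminal domain listed. The cytokinin genes comprised 4 LOG genes, 3 cytokinin dehydrogenases, 1 cytochrome P450 like the cytokinin hydroxylases, 17 genes like zeatin O-glycosyltransferases, 7 type-A, 6 type-B and 8 pseudo-response regulators, and 4 cytokinin response factors. The pseudo-response regulators entered by their descriptions, and several belong to the circadian clock in Arabidopsis. They were counted among the cytokinin genes in the shares below. By the mean deposited FPKM, a level per length of transcript, the highest gibberellin gene was Solyc11g011210 at 530.4 FPKM. The highest gene of the cytokinin list was Solyc04g049670, a pseudo-response regulator, at 138 FPKM. Single genes dominated several roles. Solyc11g072310 made up 89.3% of the summed FPKM of the synthesis genes, Solyc11g011260 made up 90.5% of that of the DELLA and DELLA-like genes and Solyc11g011210 made up 50.4% of that of the GASA genes.

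**Figure D1:**
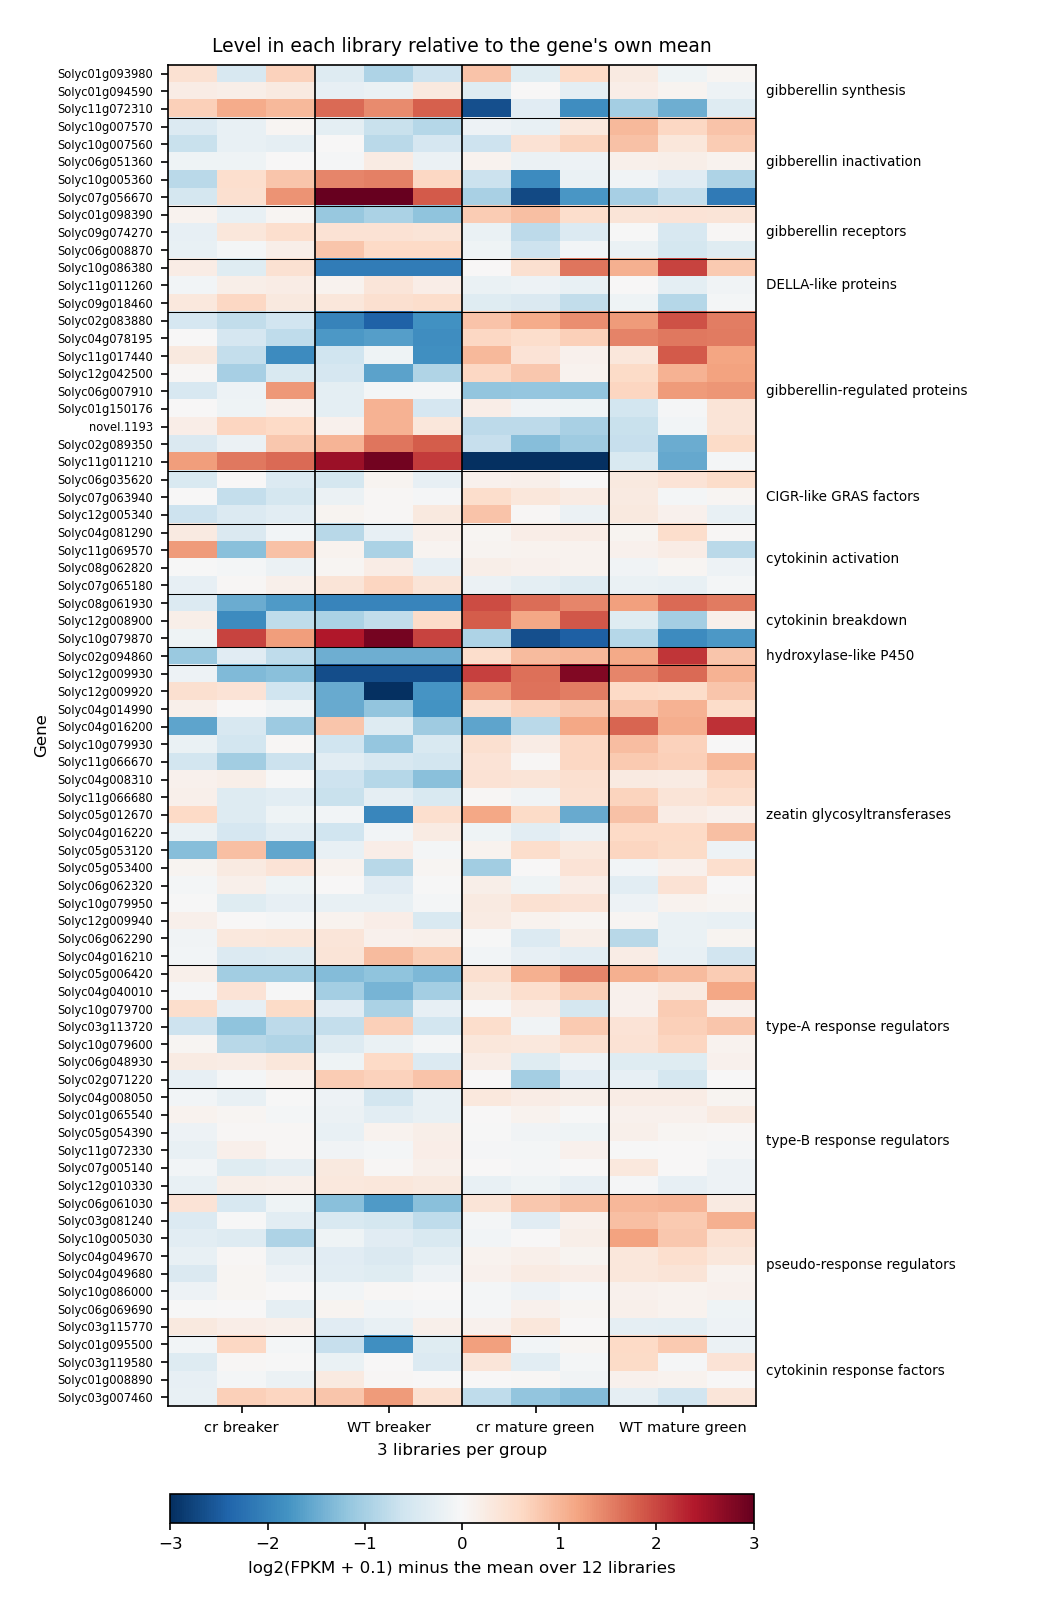
Heat map of the 76 genes (rows, grouped by role) in the 12 libraries (columns). Colour is log2(FPKM + 0.1) minus the gene's mean over the 12 libraries, drawn within ±3, so that a row shows where each gene was high or low but not its level.

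Summed over genes, cytokinin transcripts were lower at breaker than at mature green in both genotypes. Their summed FPKM was 577, 589 and 544 in cr at breaker, against 506, 512 and 530 in WT at breaker, and 686, 720 and 740 in cr at mature green, against 753, 779 and 722 in WT at mature green. Every cr breaker library stood above every WT breaker library, and the ranges at mature green overlapped. Without the 8 pseudo-response regulators, several of which belong to the circadian clock in Arabidopsis, the sums were 298, 267 and 266 FPKM in cr at breaker, against 256, 269 and 256 FPKM in WT at breaker, and 355, 366 and 402 FPKM in cr at mature green, against 375, 380 and 367 FPKM in WT at mature green. The genotypes then overlapped at both stages, and breaker libraries still lay below mature green libraries in both genotypes. Gibberellin transcripts ran the other way, at 1280, 1440 and 1580 FPKM in cr at breaker, against 2220, 3040 and 1750 FPKM in WT at breaker, and at 796, 704 and 695 FPKM in cr at mature green, against 850, 868 and 1170 FPKM in WT at mature green. Without Solyc11g011210 the gibberellin sums were 744, 767 and 862 FPKM in cr at breaker, against 911, 1390 and 788 FPKM in WT at breaker, and 777, 684 and 668 FPKM in cr at mature green, against 689, 791 and 959 FPKM in WT at mature green. The ranges of the groups then overlapped between genotypes at both stages and between stages in both genotypes.

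At breaker, cr pericarp differed from WT pericarp in single genes of most roles. The GA 2-oxidase Solyc07g056670, the receptor Solyc06g008870 and the GASA genes Solyc11g011210 and Solyc02g089350 were lower in cr than in WT. The receptor Solyc01g098390, the DELLA-like gene Solyc10g086380 and the GASA genes Solyc04g078195 and Solyc02g083880 were higher. Of the 17 zeatin glycosyltransferase-like genes, 4 were higher in cr and 1 was lower (29.4%, against 25.0% of all tested genes). Solyc12g009920 and Solyc12g009930, both among the higher ones, lie side by side. Of the 26 gibberellin genes, 4 were higher and 4 lower in cr (30.8%), and of the 50 cytokinin genes 6 were higher and 3 lower (18%). Over all 19664 tested genes, 25.0% passed the same test (edgeR quasi-likelihood test, Benjamini-Hochberg adjusted p under 0.05), 14.0% higher and 11.0% lower. The median log2 fold change, cr over WT, was -0.05 for gibberellin and 0.11 for cytokinin genes, against 0.001 for all genes. Scaling bore on the cytokinin split: upper-quartile factors gave 9 higher and 2 lower, and no normalization factors gave 11 higher and 1 lower, a setting that shifted the median of all genes to 0.133 and made 74.9% of all calls higher, against 56.0% with the TMM factors used. In bulk tissue, fewer cells of a type and less RNA per cell cannot be told apart.

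At mature green the genotypes differed less. The GASA genes Solyc11g011210 and Solyc04g078195 were lower in cr than in WT, as were the pseudo-response regulators Solyc03g081240 and Solyc10g005030 and the glycosyltransferase-like gene Solyc04g016220. The GASA gene Solyc06g007910 also passed, but it reached the count minimum only through WT at mature green, where it was highest, so that its selection favoured a difference there. With it, 3 of 26 gibberellin genes (11.5%) were called, and 2 of 24 (8.33%) without the 2 gibberellin genes that reached the minimum only through 1 group. Of the cytokinin genes, 3 of 50 were called (6.0%), and 2 of these 3 were among the 8 pseudo-response regulators. All called genes of both hormones were lower in cr. The same test called 4.34% of all tested genes in either direction, 1.72% higher and 2.62% lower. By edgeR, 0 genes of either hormone were higher in cr at an adjusted p under 0.05. At an unadjusted p under 0.05, 1 gibberellin gene and 5 cytokinin genes were higher in cr, and DESeq2 called 0 gibberellin genes and 3 cytokinin genes higher. With a fit of only the 2 groups compared, 3 cytokinin genes were higher and 2 lower. The median log2 fold change was -0.39 for gibberellin and -0.09 for cytokinin genes, against -0.013 for all genes. Cytokinin calls numbered 1 without library 2 of cr mature green.

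In cr, 8 gibberellin genes rose at breaker relative to mature green and 6 fell (53.8% of 26), while 2 cytokinin genes rose and 14 fell (32.0% of 50). The largest rises were those of Solyc11g011210 and the cytokinin dehydrogenase Solyc10g079870, and the largest falls were those of the cytokinin dehydrogenase Solyc08g061930 and the glycosyltransferase-like gene Solyc12g009930. Leaving out the gibberellin genes that reached the count minimum through 1 group only gave 7 higher and 6 lower of 24 (54.2%). Of all tested genes, 28.7% passed, 15.2% higher and 13.5% lower. The median log2 fold change, breaker over mature green, was 0.01 for gibberellin and -0.21 for cytokinin genes, against -0.003 for all genes. Leaving out library 3 of cr mature green or library 3 of cr breaker left 8 cytokinin calls. With no normalization factors 37.5% of all calls were higher, against 53.1% with TMM factors.

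In WT, 9 gibberellin genes rose at breaker and 9 fell (69.2%), while 6 cytokinin genes rose and 21 fell (54.0%). The falls took in 8 of 17 glycosyltransferase-like genes, 5 of 8 pseudo-response regulators and 3 of 7 type-A regulators. Of all tested genes, 48.3% passed, 23.4% higher and 24.9% lower. The median log2 fold change was -0.10 for gibberellin and -0.51 for cytokinin genes, against 0.004 for all genes. With no normalization factors, which put the median of all genes at -0.194 and made 29.6% of all calls higher, against 48.4% with TMM factors, 7 gibberellin genes were called higher and 11 lower. Calls in both genotypes were shared by 23 genes, 8 higher and 15 lower in each and 0 in opposite directions. They were 76.7% of the 30 calls in cr and 51.1% of the 45 calls in WT, comparisons that share no library. Over all tested genes the shared calls were 77.3% of those in cr and 45.9% of those in WT, so the overlap was near that of all genes.

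**Figure D2:**
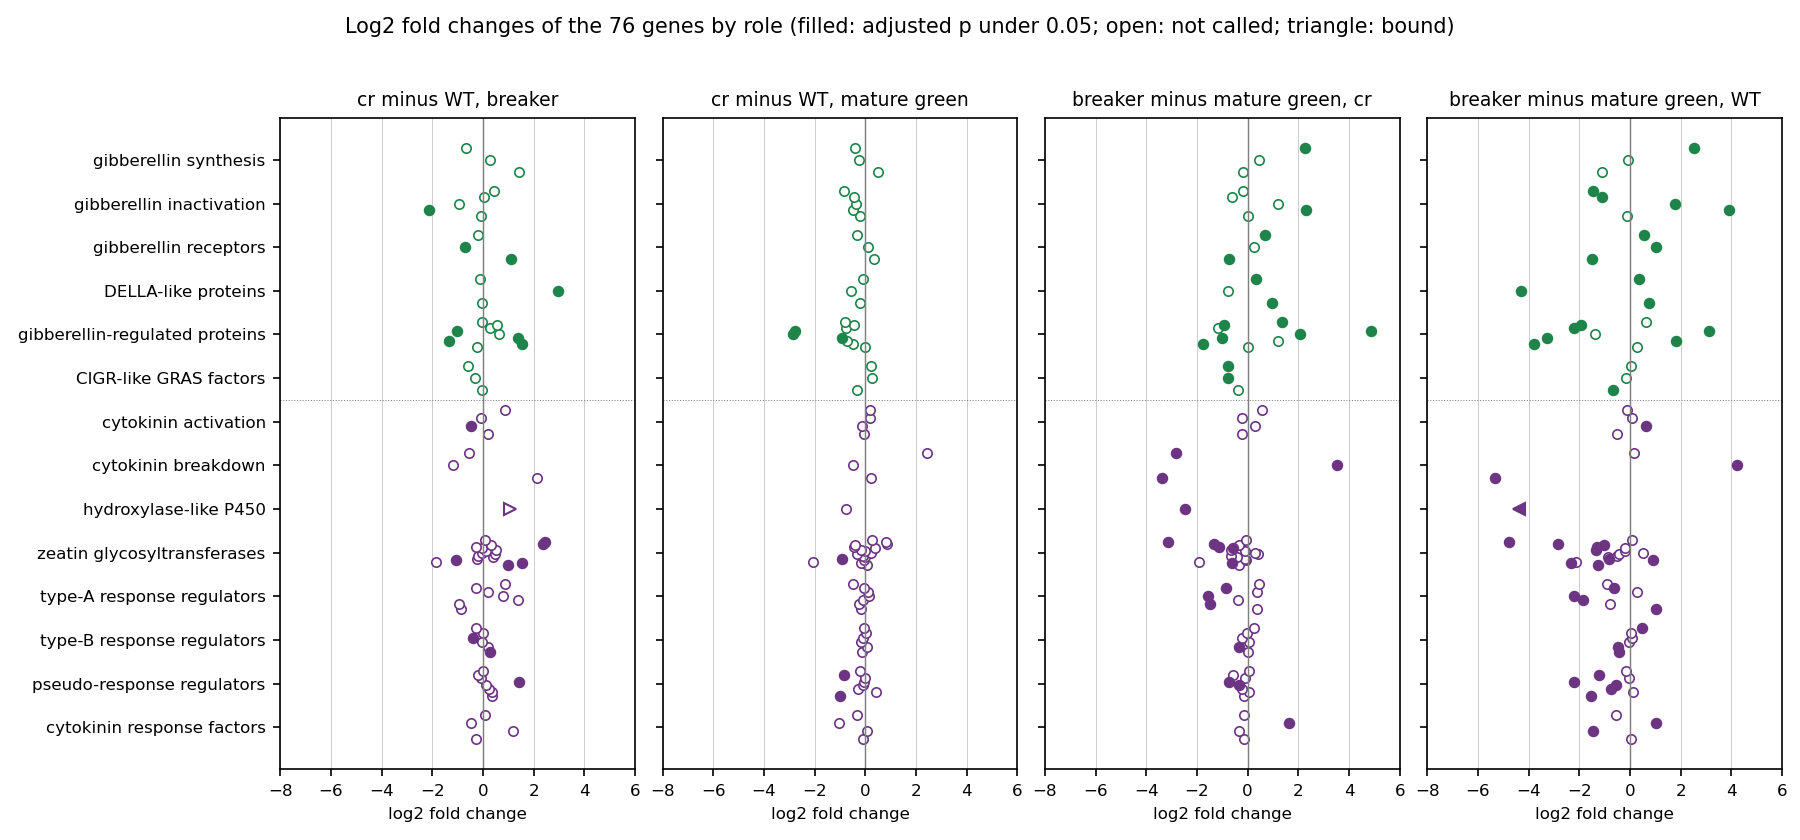
Log2 fold change of each gene (x axis) by role (rows, gibberellin roles above the dotted line and cytokinin roles below), in 4 panels: cr over WT at breaker and at mature green, and breaker over mature green in cr and in WT. Filled points passed the edgeR test. The triangle marks a gene with 0 counts in WT at breaker, drawn at its ratio against a floor of 3 counts. The mature green panel between genotypes holds 6 filled points, all left of 0, and the WT stage panel holds 45.

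Whether the stage change itself differed between genotypes was tested as an interaction, the change in cr minus the change in WT. It passed for 8 gibberellin genes (7 positive and 1 negative, 30.8%) and for 6 cytokinin genes (all positive, 12%), against 13.1% of all tested genes, 8.53% positive and 4.62% negative. Of those 6 cytokinin genes, 3 were among the 8 pseudo-response regulators. A positive value means that cr fell less or rose more than WT on the log2 scale. Of the 13 positive genes, 11 fell at breaker in WT, Solyc06g007910 had a negative change in WT that did not pass, and Solyc11g011210 rose in both genotypes. The median interaction was 0.37 for gibberellin and 0.21 for cytokinin genes, against 0.030 for all genes. Without the 2 gibberellin genes that reached the count minimum through 1 group only, 7 of 24 passed (29.2%) and the median was 0.23. By edgeR, 0 cytokinin genes were negative at an adjusted p under 0.05, 3 were at an unadjusted p under 0.05, and DESeq2 called 0. Without library 2 of WT breaker, 3 cytokinin genes passed. With no normalization factors 78.7% of all calls were positive, against 64.9% with TMM factors.

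**Figure D3:**
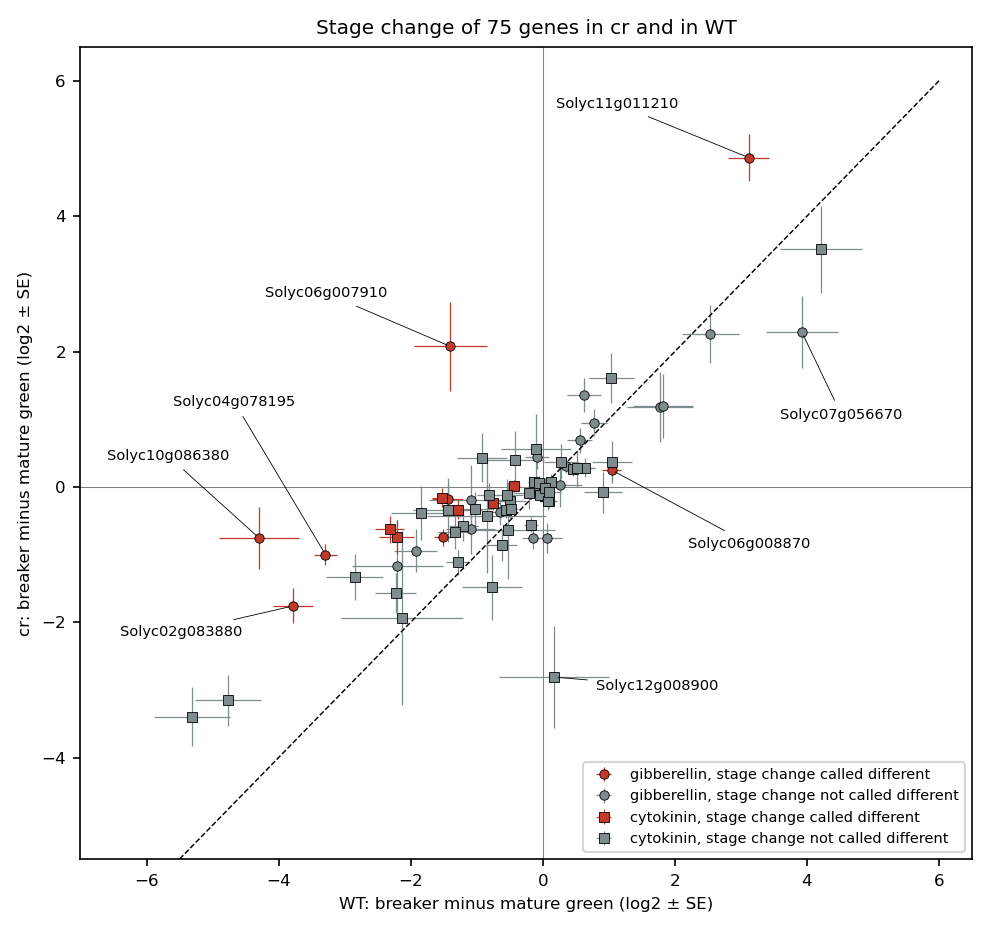
Stage change in cr (y axis) against stage change in WT (x axis), both as log2 fold change of breaker over mature green with standard errors, for 75 genes; Solyc02g094860, with 0 counts in WT at breaker, is left out. Red points passed the interaction test, and all but the receptor Solyc06g008870 lie above the dashed line of equal change.

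In the gene by gene account, values are the deposited FPKM of the 3 libraries of a group in replicate order, and log2 fold changes with standard errors come from the counts by edgeR. A log2 fold change between genotypes is cr over WT, and one between stages is breaker over mature green. Where leaving out 1 library ended a call, or made one, that library is named by its number in the labels, with the edgeR adjusted p without it in parentheses.

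The most abundant late-synthesis gene was Solyc11g072310, GA 20-oxidase-3 (SL4.0 chromosome 11, 53574618 to 53577017, plus strand). It stood at 68.6, 90.3 and 81.3 FPKM in cr at breaker, against 135, 111 and 143 FPKM in WT at breaker, and at 6.603, 32.5 and 11.4 FPKM in cr at mature green, against 20.5, 14.9 and 31.7 FPKM in WT at mature green. All breaker libraries lay above all mature green libraries, and all cr breaker libraries lay below all WT breaker libraries. The rise at breaker passed in cr (log2 fold change 2.26 ± 0.432 (SE), edgeR adjusted p = 0.00195) and in WT (2.54 ± 0.432, adjusted p = 0.000328). Without library 2 of cr mature green the log2 fold change in cr was 3.16. The difference between genotypes at breaker did not pass (-0.69 ± 0.404, adjusted p = 0.24). The other 2 genes were low: Solyc01g094590, like an Arabidopsis 20-oxidase-like protein, ranged from 5.504 to 8.76 FPKM over all libraries, and Solyc01g093980 from 0.0770 to 0.512 FPKM. Neither was called in any comparison with all libraries in the fit, and Solyc01g094590 was called between stages in cr without library 3 (0.0438) of WT breaker.

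Inactivation was led by Solyc07g056670, GA 2-oxidase 2 (SL4.0 chromosome 7, 64388863 to 64390461, minus strand). It stood at 13.2, 26.9 and 49.2 FPKM in cr at breaker, against 166, 152 and 69.3 FPKM in WT at breaker, and at 9.77, 2.85 and 5.68 FPKM in cr at mature green, against 9.61, 11.5 and 4.29 FPKM in WT at mature green. The breaker groups did not overlap, and each breaker group lay above its mature green group. At breaker it was lower in cr than in WT (log2 fold change -2.11 ± 0.492 (SE), edgeR adjusted p = 0.00727). From mature green to breaker it rose in cr (2.29 ± 0.532, adjusted p = 0.00635) and in WT (3.92 ± 0.543, adjusted p = 6.34e-05). The difference between those stage changes did not pass (-1.64 ± 0.728, adjusted p = 0.164).

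A further GA 2-oxidase, Solyc10g007570, went the other way. It stood at 3.13, 3.59 and 4.35 FPKM in cr at breaker, against 3.42, 2.59 and 2.27 FPKM in WT at breaker, and at 3.77, 3.58 and 5.29 FPKM in cr at mature green, against 8.26, 6.53 and 7.66 FPKM in WT at mature green. It fell at breaker in WT (-1.44 ± 0.236 (SE), edgeR adjusted p = 0.000247), where the stages did not overlap, and the change in cr did not pass (-0.18 ± 0.232, adjusted p = 0.596). The interaction passed (1.25 ± 0.33, adjusted p = 0.0254) and was lost without library 3 (0.0535) of cr breaker, library 2 (0.0579) of WT breaker, library 1 (0.0614), 2 (0.0609) of cr mature green or library 1 (0.0555), 3 (0.0503) of WT mature green. Its difference at mature green did not pass (-0.83 ± 0.225, adjusted p = 0.0565), but did without library 1 (0.0494) of cr breaker. Solyc10g007560 lies beside it, and reads may be shared between the pair. The GA 2-beta-dioxygenase 8 gene Solyc10g005360 rose at breaker in WT (1.77 ± 0.497, adjusted p = 0.00987), with 3.32, 3.44 and 1.83 FPKM in WT at breaker against 1.05, 0.89 and 0.556 FPKM in WT at mature green.

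**Figure D4:**
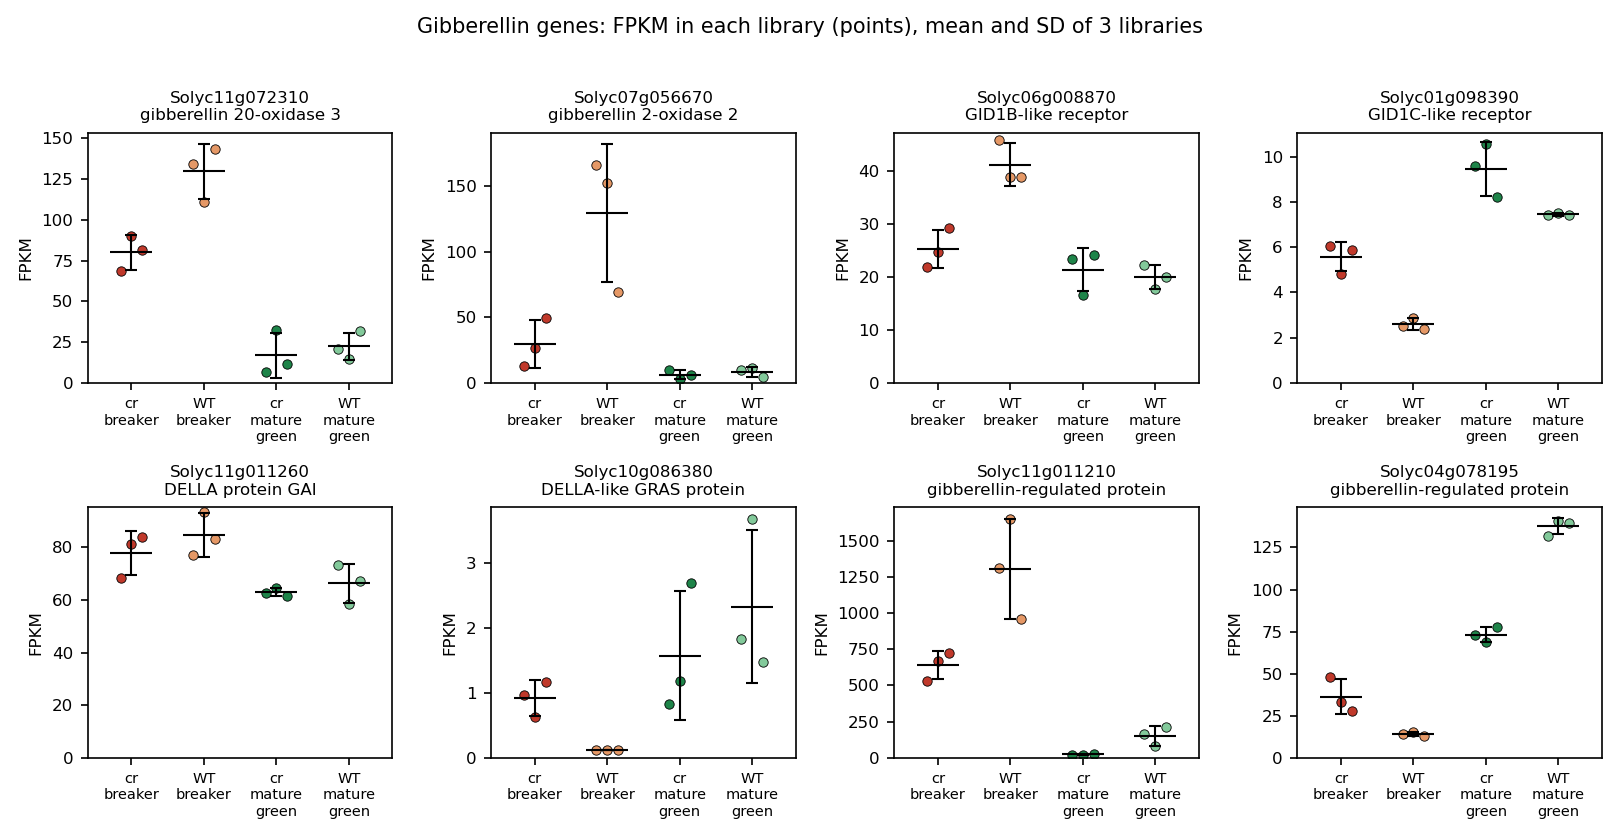
FPKM per library (points) with group mean and SD (bars) for gibberellin genes, in the order cr at breaker, WT at breaker, cr at mature green and WT at mature green. Solyc07g056670 and Solyc11g011210 were highest in WT at breaker, whereas Solyc01g098390 and Solyc04g078195 were lowest there.

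The 3 receptor genes did not move alike. Solyc06g008870 (like Arabidopsis GID1B, SL4.0 chromosome 6, 2816516 to 2819551, plus strand) stood at 21.9, 24.6 and 29.2 FPKM in cr at breaker, against 45.7, 38.9 and 38.8 FPKM in WT at breaker, and at 23.3, 16.6 and 24.2 FPKM in cr at mature green, against 22.2, 17.6 and 20.02 FPKM in WT at mature green. Only the WT breaker group stood apart from the other 3 groups. At breaker it was lower in cr than in WT (log2 fold change -0.70 ± 0.148 (SE), edgeR adjusted p = 0.00414). From mature green to breaker it rose in WT (1.04 ± 0.149, adjusted p = 8.29e-05), while the change in cr did not pass (0.25 ± 0.149, adjusted p = 0.234). The interaction passed (-0.79 ± 0.21, adjusted p = 0.0258), and it was lost without library 1 (0.0561), 2 (0.0522) of cr breaker, library 1 (0.0656) of WT breaker, library 1 (0.0647), 3 (0.0626) of cr mature green or library 2 (0.0661) of WT mature green.

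Solyc01g098390 (like Arabidopsis GID1C, SL4.0 chromosome 1, 81175412 to 81178192, plus strand) stood at 6.04, 4.83 and 5.88 FPKM in cr at breaker, against 2.52, 2.89 and 2.40 FPKM in WT at breaker, and at 9.59, 10.6 and 8.19 FPKM in cr at mature green, against 7.41, 7.50 and 7.41 FPKM in WT at mature green. The groups did not overlap between genotypes at either stage or between stages in either genotype. At breaker it was higher in cr than in WT (1.11 ± 0.137 (SE), edgeR adjusted p = 0.000116). From mature green to breaker it fell in cr (-0.75 ± 0.128, adjusted p = 0.000958) and in WT (-1.51 ± 0.136, adjusted p = 1.85e-06). The fall was smaller in cr (interaction 0.77 ± 0.185, adjusted p = 0.017).

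Solyc09g074270, the most abundant receptor gene and also like GID1B, stood at 24.0, 36.2 and 40.6 FPKM in cr at breaker, against 38.8, 38.9 and 37.6 FPKM in WT at breaker, and at 24.8, 16.7 and 21.5 FPKM in cr at mature green, against 28.3, 20.6 and 29.4 FPKM in WT at mature green. It rose at breaker in cr (0.69 ± 0.19 (SE), edgeR adjusted p = 0.0166), although 1 cr breaker library lay within the cr mature green range, and in WT (0.56 ± 0.189, adjusted p = 0.0264). The call in cr was lost without library 2 (0.0594), 3 (0.0824) of cr breaker or library 2 (0.0715) of cr mature green, and that in WT without library 1 (0.0594), 2 (0.0602) of WT breaker or library 2 (0.115) of WT mature green and under upper-quartile or no normalization factors. Between genotypes it did not pass at breaker (-0.19 ± 0.188, adjusted p = 0.507) or at mature green (-0.32 ± 0.19, adjusted p = 0.402).

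Among DELLA and DELLA-like genes, Solyc11g011260, annotated GAI and the only one of the 3 with the DELLA N-terminal domain listed (SL4.0 chromosome 11, 4335973 to 4337739, minus strand), varied little. It stood at 68.2, 81.3 and 83.9 FPKM in cr at breaker, against 77.3, 93.5 and 83.2 FPKM in WT at breaker, and at 62.8, 64.4 and 61.6 FPKM in cr at mature green, against 73.2, 58.5 and 67.4 FPKM in WT at mature green. It rose slightly at breaker in cr (0.32 ± 0.106 (SE), edgeR adjusted p = 0.0404) and in WT (0.35 ± 0.106, adjusted p = 0.0147). The first call was lost without library 2 (0.122), 3 (0.15) of cr breaker or library 1 (0.0946), 2 (0.0787), 3 (0.121) of cr mature green, and the second without library 2 (0.0681) of WT breaker or library 2 (0.0714) of WT mature green. Upper-quartile factors and no normalization factors also ended both calls. Solyc09g018460, annotated GRAS5, rose at breaker in cr (0.95 ± 0.198, adjusted p = 0.0034) and in WT (0.77 ± 0.198, adjusted p = 0.00588), with 7.58, 9.44 and 7.54 FPKM in cr at breaker, 7.79, 8.55 and 8.90 FPKM in WT at breaker, 4.75, 4.46 and 3.59 FPKM in cr at mature green and 5.59, 3.35 and 5.87 FPKM in WT at mature green.

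Solyc10g086380, a GRAS factor described as like GAI (SL4.0 chromosome 10, 64372035 to 64373576, plus strand), was lowest in WT at breaker. It stood at 0.968, 0.618 and 1.16 FPKM in cr at breaker, against 0.115, 0.114 and 0.116 FPKM in WT at breaker, and at 0.819, 1.18 and 2.69 FPKM in cr at mature green, against 1.83, 3.67 and 1.47 FPKM in WT at mature green. The count was 9 over the 3 WT breaker libraries, and scaled counts were 8.0 times higher in cr at breaker (95% interval 4.01 to 18.1, counting error only). At breaker it was higher in cr than in WT (2.96 ± 0.638 (SE), edgeR adjusted p = 0.00464). From mature green to breaker it fell in WT (-4.29 ± 0.606, adjusted p = 7.46e-05). The change in cr did not pass (-0.76 ± 0.461, adjusted p = 0.243) and the cr stages overlapped. The interaction was 3.53 ± 0.78, adjusted p = 0.0107, and it was 4.17 without library 3 of cr mature green.

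The GASA peptides are small cysteine-rich secreted proteins, first described as gibberellin-induced transcripts in tomato. Solyc11g011210, described as like tomato RSI-1 (SL4.0 chromosome 11, 4296597 to 4297694, minus strand), was the most abundant of all 76 genes. It stood at 533, 672 and 721 FPKM in cr at breaker, against 1314, 1649 and 959 FPKM in WT at breaker, and at 19.0, 20.3 and 27.2 FPKM in cr at mature green, against 161, 77.2 and 213 FPKM in WT at mature green. No pair of groups overlapped. It was lower in cr than in WT at breaker (log2 fold change -1.02 ± 0.285 (SE), edgeR adjusted p = 0.0197) and at mature green (-2.76 ± 0.324, adjusted p = 0.000695). From mature green to breaker it rose in cr (4.87 ± 0.345, adjusted p = 3.28e-06) and in WT (3.12 ± 0.308, adjusted p = 4.06e-06). The rise was larger in cr as a fold change only (interaction 1.75 ± 0.423, adjusted p = 0.0172). Mean FPKM went from 22.2 to 642 in cr and from 150 to 1307 in WT. The breaker difference was lost without library 1 (0.0766) of cr breaker or library 2 (0.0867) of WT breaker.

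Solyc04g078195, described as like potato snakin-1, an antimicrobial peptide (SL4.0 chromosome 4, 60989719 to 60990630, plus strand), crossed over between stages. It stood at 48.0, 33.0 and 27.7 FPKM in cr at breaker, against 14.3, 15.04 and 12.8 FPKM in WT at breaker, and at 73.2, 68.6 and 77.7 FPKM in cr at mature green, against 132, 141 and 139.8 FPKM in WT at mature green. Against WT, it was higher in cr at breaker (1.38 ± 0.169 (SE), edgeR adjusted p = 0.000112) and lower in cr at mature green (-0.91 ± 0.15, adjusted p = 0.00652), with no overlap at either stage. It fell at breaker in cr (-1.0 ± 0.155, adjusted p = 0.000501) and in WT (-3.29 ± 0.171, adjusted p = 4.37e-08), less so in cr (interaction 2.29 ± 0.226, adjusted p = 0.000111).

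Solyc02g083880, like Arabidopsis GASA11, stood at 2.66, 2.26 and 2.52 FPKM in cr at breaker, against 0.884, 0.624 and 1.02 FPKM in WT at breaker, and at 6.95, 8.32 and 10.2 FPKM in cr at mature green, against 9.41, 14.5 and 11.2 FPKM in WT at mature green. At breaker it was higher in cr than in WT (1.55 ± 0.327 (SE), edgeR adjusted p = 0.00405). From mature green to breaker it fell in cr (-1.76 ± 0.259, adjusted p = 0.000342) and in WT (-3.78 ± 0.301, adjusted p = 7.70e-07), with an interaction of 2.02 ± 0.403, adjusted p = 0.00642. At mature green the genotypes overlapped. Solyc02g089350, like tomato GAST1, stood at 3.56, 4.21 and 8.47 FPKM in cr at breaker against 9.80, 14.8 and 17.1 FPKM in WT at breaker. It was lower in cr than in WT there (-1.36 ± 0.441, adjusted p = 0.0384). That call was lost without library 1 (0.136), 2 (0.117) of cr breaker or library 2 (0.0949), 3 (0.107) of WT breaker and with no normalization factors. In WT it rose at breaker (1.82 ± 0.451, adjusted p = 0.00474), by a log2 fold change of 2.59 without library 3 of WT mature green.

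Of the other GASA genes, the snakin-1-like gene Solyc12g042500 fell at breaker in cr (-0.94 ± 0.314, adjusted p = 0.0395) and in WT (-1.93 ± 0.327, adjusted p = 0.000331). The cr call was lost without library 2 (0.143), 3 (0.108) of cr breaker, library 1 (0.0912), 2 (0.13) of cr mature green or library 2 (0.0528) of WT mature green. The 1 feature without a Solyc identifier, like Arabidopsis GASA1, rose at breaker in cr (1.36 ± 0.257, adjusted p = 0.00187). Solyc01g150176, like snakin-2 and second in level, was called in no comparison and ranged from 264 to 794 FPKM; it is named here after its values were seen. So is Solyc06g007910, under 1 CPM on average, which had 6 counts over the 3 cr mature green libraries and 42 over the 3 WT mature green libraries. It passed in cr against WT at mature green (-2.84 ± 0.627, adjusted p = 0.025), lost without library 1 (0.0873), 2 (0.0948), 3 (0.0927) of cr mature green or library 2 (0.0623), 3 (0.0962) of WT mature green, and its interaction (3.47 ± 0.864, adjusted p = 0.0194) rested on library 3 of cr breaker, without which it was 2.61 (0.0535).

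The 3 GRAS factors like rice CIGR, which in rice responds to gibberellin and chitin, included 2 that fell at breaker in cr. Solyc12g005340 stood at 9.61, 11.2 and 11.8 FPKM in cr at breaker, against 15.6, 15.4 and 18.3 FPKM in WT at breaker, and at 27.1, 15.3 and 13.2 FPKM in cr at mature green, against 18.2, 16.4 and 12.7 FPKM in WT at mature green. It fell at breaker in cr (-0.76 ± 0.226 (SE), edgeR adjusted p = 0.024), lost without library 1 (0.0685), 2 (0.0599) of cr breaker or library 1 (0.108) of cr mature green. Its difference between genotypes at breaker did not pass (-0.59 ± 0.227, adjusted p = 0.0767), but did without library 1 (0.0111), 3 (0.0498) of cr mature green. Solyc07g063940 fell at breaker in cr (-0.76 ± 0.169, adjusted p = 0.00517), and Solyc06g035620 fell at breaker in WT (-0.65 ± 0.19, adjusted p = 0.0123), lost without library 1 (0.0558) of WT breaker.

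Of the 4 cytokinin activation genes, Solyc07g065180 alone was called in a comparison with all libraries in the fit. Solyc08g062820, like Arabidopsis LOG8 and the most abundant of the 4, stood at 38.5, 37.6 and 34.8 FPKM in cr at breaker, against 40.7, 45.7 and 33.1 FPKM in WT at breaker, and at 44.5, 42.5 and 41.7 FPKM in cr at mature green, against 36.5, 40.4 and 35.1 FPKM in WT at mature green, and it was called in no comparison. Solyc07g065180 was lower in cr than in WT at breaker (-0.48 ± 0.14 (SE), edgeR adjusted p = 0.0227), with 7.36, 8.91 and 9.65 FPKM in cr against 11.5, 13.6 and 11.3 FPKM in WT, and the groups did not overlap. That call was lost without library 1 (0.0903) of cr breaker or library 2 (0.0947) of WT breaker. In WT it rose at breaker (0.65 ± 0.14, adjusted p = 0.002). Solyc04g081290 ranged from 3.50 to 9.02 FPKM and Solyc11g069570 from 0.953 to 5.95 FPKM over all libraries.

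The cytokinin dehydrogenases moved in opposite directions. Solyc10g079870, cytokinin dehydrogenase 1 (SL4.0 chromosome 10, 60459187 to 60461872, plus strand), stood at 0.972, 4.64 and 2.69 FPKM in cr at breaker, against 6.05, 8.43 and 4.68 FPKM in WT at breaker, and at 0.518, 0.0876 and 0.114 FPKM in cr at mature green, against 0.546, 0.215 and 0.256 FPKM in WT at mature green. Every breaker library lay above every mature green library of the same genotype, and the rise passed in cr (3.51 ± 0.645 (SE), edgeR adjusted p = 0.00155) and in WT (4.21 ± 0.617, adjusted p = 9.99e-05). The log2 fold change in cr was 2.91 without library 2 of cr breaker and 4.73 without library 1 of cr mature green. Between genotypes at breaker the groups did not overlap and the test did not pass (-1.20 ± 0.50, adjusted p = 0.0981), but it did without library 2 (0.0342) of cr breaker.

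Solyc08g061930 (SL4.0 chromosome 8, 48099901 to 48103544, plus strand) stood at 0.29, 0.0841 and 0.0594 FPKM in cr at breaker, against 0.0313, 0.0309 and 0.0315 FPKM in WT at breaker, and at 1.90, 1.57 and 1.33 FPKM in cr at mature green, against 1.11, 1.60 and 1.43 FPKM in WT at mature green. It fell at breaker in cr (-3.40 ± 0.439 (SE), edgeR adjusted p = 0.000135), with a log2 fold change of -4.40 without library 1 of cr breaker, and in WT (-5.32 ± 0.573, adjusted p = 8.17e-06). In WT it had 3 counts at breaker and 149 at mature green over 3 libraries each, a 44.1-fold ratio of scaled counts (95% interval 14.8 to 216, counting error only). The 16 counts in cr at breaker and 3 in WT at breaker gave a 4.8-fold ratio (1.37 to 25.7), which did not pass the test (2.13 ± 0.737, adjusted p = 0.0506) but did without library 2 (0.0388), 3 (0.0223) of cr breaker. Solyc12g008900, cytokinin oxidase 6, stood at 1.21, 0.733 and 1.25 FPKM in cr at mature green against 0.19, 0.0828 and 0.316 FPKM in WT at mature green. That difference did not pass (2.42 ± 0.727, adjusted p = 0.0831), though DESeq2 called it. Its fall at breaker in cr passed (-2.81 ± 0.754, adjusted p = 0.0141) and was lost without library 3 (0.0618) of cr breaker or library 3 (0.0507) of cr mature green, and without library 1 of cr breaker the log2 fold change was -4.11.

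The P450 gene Solyc02g094860, like the Arabidopsis enzymes that hydroxylate cytokinins to trans-zeatin forms, had 0 counts in all 3 WT breaker libraries and 70 over the WT mature green libraries. With a floor of 3 counts in place of 0, its scaled counts were 20.7-fold lower in WT at breaker than in WT at mature green. Against the same floor, its 7 counts in cr at breaker were 2.1-fold higher than in WT at breaker. Neither ratio carries an interval for counting error. The difference between genotypes at breaker did not pass (edgeR adjusted p = 0.0607) but did without library 2 (0.041) of WT mature green. The gene fell at breaker in cr (-2.46 ± 0.659 (SE), edgeR adjusted p = 0.017). That call was lost without library 1 (0.0537), 3 (0.0633) of cr breaker or library 3 (0.0552) of cr mature green. Without library 2 of cr breaker the log2 fold change was -3.06.

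Genes like the zeatin O-glycosyltransferases of bean, enzymes that attach a sugar to the zeatin side chain, were the largest role, and what sugar or acceptor the tomato proteins use is not in the files. The most abundant, Solyc04g008310 (SL4.0 chromosome 4, 2018068 to 2019480, minus strand), stood at 30.2, 31.1 and 27.3 FPKM in cr at breaker, against 18.0, 15.3 and 11.5 FPKM in WT at breaker, and at 37.4, 36.5 and 38.9 FPKM in cr at mature green, against 33.3, 32.8 and 42.5 FPKM in WT at mature green. The WT breaker libraries were the lowest, and the cr breaker libraries lay between them and all mature green libraries. At breaker it was higher in cr than in WT (0.99 ± 0.143 (SE), edgeR adjusted p = 0.000336). From mature green to breaker it fell in WT (-1.28 ± 0.143, adjusted p = 1.16e-05). The change in cr did not pass (-0.34 ± 0.138, adjusted p = 0.0871), but did without library 3 (0.037) of WT breaker. The interaction passed (0.94 ± 0.198, adjusted p = 0.00835).

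Solyc04g014990, a short gene model with no listed domain, stood at 12.1, 11.0 and 10.1 FPKM in cr at breaker, against 3.73, 4.73 and 3.03 FPKM in WT at breaker, and at 15.2, 17.6 and 19.0 FPKM in cr at mature green, against 19.37, 22.3 and 15.9 FPKM in WT at mature green. At breaker the gene was higher in cr than in WT (1.53 ± 0.226 (SE), edgeR adjusted p = 0.00039). Its fall from mature green to breaker was smaller in cr (-0.63 ± 0.20, adjusted p = 0.032) than in WT (-2.32 ± 0.223, adjusted p = 3.18e-06), with an interaction of 1.69 ± 0.298, adjusted p = 0.00328. The cr stage call was lost without library 2 (0.0793), 3 (0.11) of cr breaker or library 2 (0.0784), 3 (0.114) of cr mature green.

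Solyc12g009920, Solyc12g009930 and Solyc12g009940 lie side by side on chromosome 12, and reads may be shared among them. Solyc12g009930 (SL4.0 chromosome 12, 3135453 to 3136808, plus strand) stood at 1.29, 0.513 and 0.543 FPKM in cr at breaker, against 0.143, 0.141 and 0.144 FPKM in WT at breaker, and at 6.19, 4.70 and 10.5 FPKM in cr at mature green, against 4.09, 4.91 and 3.06 FPKM in WT at mature green. The 9 counts over the WT breaker libraries were 28.2-fold below the scaled 286 of WT at mature green (95% interval 14.7 to 62.4, counting error only). At breaker the gene was higher in cr than in WT (2.43 ± 0.578 (SE), edgeR adjusted p = 0.00821). From mature green to breaker it fell in cr (-3.16 ± 0.383, adjusted p = 8.77e-05) and in WT (-4.76 ± 0.503, adjusted p = 6.91e-06). Its neighbour Solyc12g009920 did likewise. At breaker that gene was higher in cr than in WT (2.37 ± 0.434, adjusted p = 0.0017), and from mature green to breaker it fell in cr (-1.34 ± 0.342, adjusted p = 0.0109) and in WT (-2.85 ± 0.426, adjusted p = 0.000118). Solyc12g009940, named here after its values were seen, was called in no comparison.

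In the other glycosyltransferase-like genes the directions differed. Solyc04g016220 stood at 15.3, 13.5 and 14.9 FPKM in cr at mature green against 25.5, 25.7 and 31.8 FPKM in WT at mature green. It was called lower in cr there (-0.93 ± 0.177 (SE), edgeR adjusted p = 0.0129), lost without library 2 (0.058) of cr mature green or library 3 (0.0684) of WT mature green. Its neighbour Solyc04g016210 was called lower in cr than in WT at breaker (-1.06 ± 0.295, adjusted p = 0.019), lost without library 2 (0.0586), 3 (0.0602) of cr breaker or library 2 (0.0784) of WT breaker. In WT that gene rose at breaker (0.91 ± 0.292, adjusted p = 0.0202), the only one of the 17 to do so by edgeR, and the call was lost without library 2 (0.0814) of WT breaker or library 2 (0.0612), 3 (0.0749) of WT mature green. Solyc11g066670 fell at breaker in cr (-1.11 ± 0.181, adjusted p = 0.00068) and in WT (-1.29 ± 0.179, adjusted p = 6.66e-05).

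**Figure D5:**
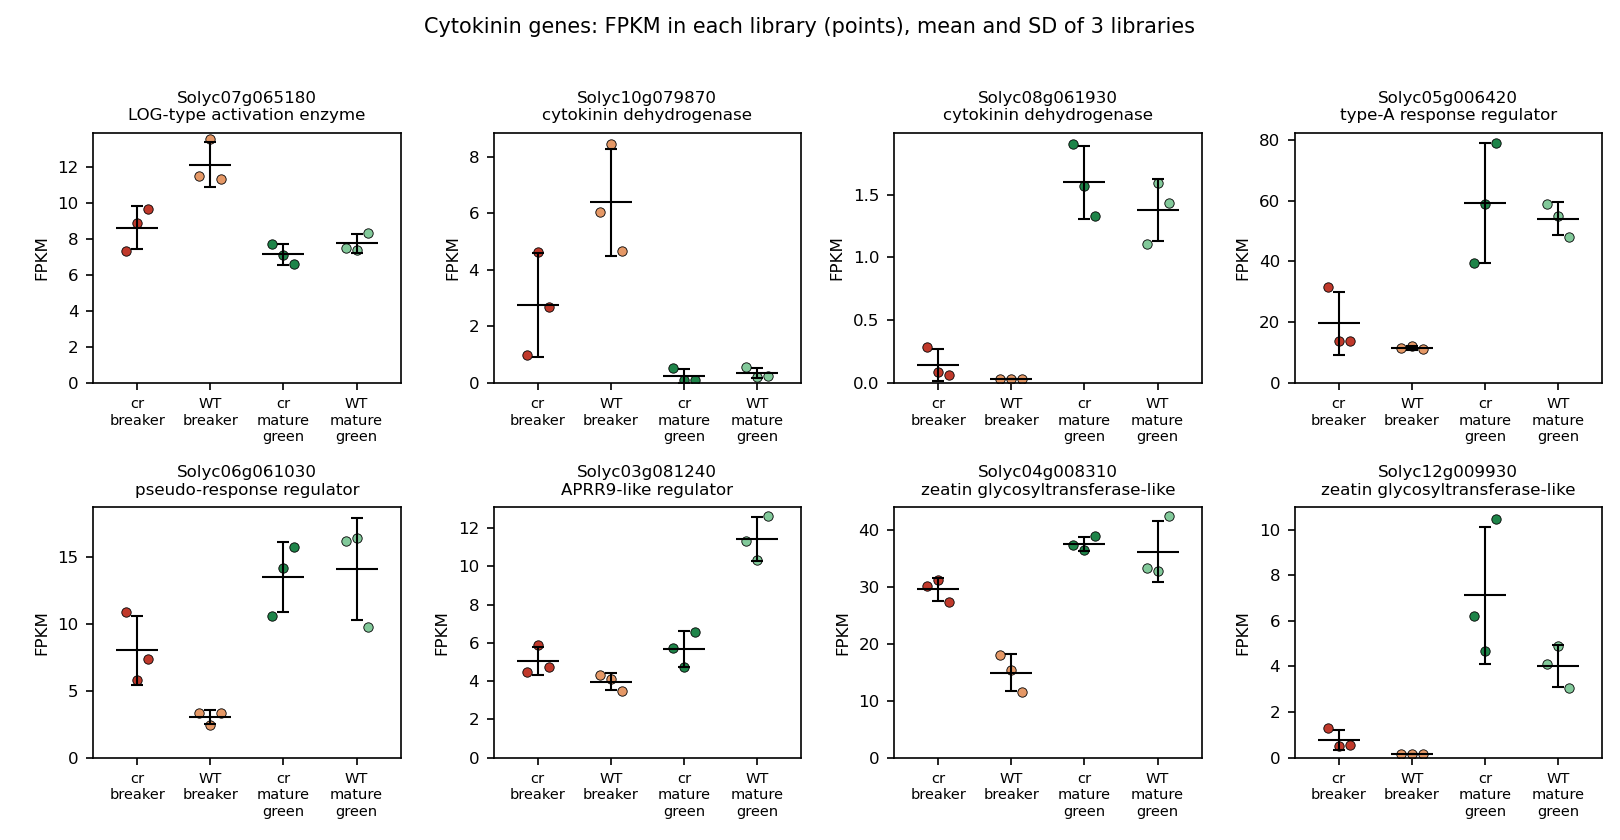
FPKM per library (points) with group mean and SD (bars) for cytokinin genes, in the order cr at breaker, WT at breaker, cr at mature green and WT at mature green. Solyc04g008310 was lowest in WT at breaker, and Solyc05g006420 was lower at breaker than at mature green in both genotypes.

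Of the 7 type-A response regulators, 3 fell at breaker in cr and 4 did not pass, against 13.5% of all tested genes lower there. In WT 3 fell, 1 rose and 3 did not pass, so that 57.1% were called, against 48.3% of all tested genes. Solyc05g006420, described as like ARR3 (SL4.0 chromosome 5, 1107478 to 1110898, plus strand), stood at 31.7, 13.6 and 13.8 FPKM in cr at breaker, against 11.5, 12.2 and 11.1 FPKM in WT at breaker, and at 39.6, 59.0 and 79.0 FPKM in cr at mature green, against 59.0, 55.1 and 48.1 FPKM in WT at mature green. All cr breaker libraries lay below all cr mature green libraries, and the same held in WT. It fell in cr (-1.57 ± 0.297 (SE), edgeR adjusted p = 0.00182) and in WT (-2.22 ± 0.309, adjusted p = 6.51e-05). Its cr breaker libraries all lay above the WT breaker libraries, a difference that did not pass (0.78 ± 0.307, adjusted p = 0.0811) but did without library 2 (0.0421), 3 (0.0407) of cr breaker. Solyc10g079600, like ARR9, fell at breaker in cr (-0.86 ± 0.235, adjusted p = 0.0155), lost without library 2 (0.0689), 3 (0.0724) of cr breaker or library 3 (0.0547) of cr mature green. Solyc02g071220, type-A response regulator 2, rose at breaker in WT (1.05 ± 0.303, adjusted p = 0.0118), lost without library 2 (0.0511) of WT mature green.

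Of the 6 type-B response regulators, 1 fell at breaker in cr (16.7%), and in WT 1 rose and 2 fell (50%), shares that stood beside 28.7% and 48.3% of all tested genes. Solyc05g054390, the most abundant, ranged from 14.4 to 18.9 FPKM over the 12 libraries and was called in no comparison. Solyc01g065540 was higher in cr than in WT at breaker by a small amount (0.29 ± 0.0884 (SE), edgeR adjusted p = 0.0283), with 10.2, 9.90 and 9.23 FPKM in cr against 8.42, 7.59 and 8.12 FPKM in WT. That call was lost without library 1 (0.0915), 2 (0.0694) of cr breaker or library 2 (0.108) of WT breaker. Its interaction (0.44 ± 0.124, adjusted p = 0.0343) was lost without library 1 (0.0686), 2 (0.0642) of cr breaker, library 2 (0.0819) of WT breaker, library 1 (0.0818), 3 (0.0764) of cr mature green or library 2 (0.0502), 3 (0.0778) of WT mature green. Solyc07g005140 was lower in cr than in WT at breaker (-0.39 ± 0.129, adjusted p = 0.0427), a call lost without library 2 (0.134), 3 (0.117) of cr breaker, library 1 (0.146), 3 (0.0738) of WT breaker, library 1 (0.0563), 2 (0.0577), 3 (0.058) of cr mature green or library 2 (0.0541) of WT mature green and under upper-quartile or no normalization factors. Solyc12g010330 rose at breaker in WT (0.46 ± 0.105, adjusted p = 0.00291), with 20.1, 20.6 and 19.96 FPKM in WT at breaker against 15.8, 13.8 and 14.6 FPKM in WT at mature green. Solyc04g008050, named here after its values were seen, stood at 11.74, 10.6 and 12.3 FPKM in cr at breaker, against 11.1, 8.43 and 10.5 FPKM in WT at breaker, and at 15.4, 14.5 and 13.9 FPKM in cr at mature green, against 14.5, 14.4 and 13.1 FPKM in WT at mature green. The stage change was negative in cr (-0.33 ± 0.109, adjusted p = 0.038) and in WT (-0.48 ± 0.11, adjusted p = 0.00272), and both passed, with no overlap of the stages in either genotype. The call in cr was lost when any 1 cr library was left out, at adjusted p from 0.0513 to 0.139.

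Pseudo-response regulators entered by their descriptions; in Arabidopsis several of them belong to the circadian clock and are not cytokinin signalling parts. Solyc04g049670, the most abundant, stood at 117, 140.0 and 113 FPKM in cr at breaker, against 107, 100.1 and 111 FPKM in WT at breaker, and at 145, 150.5 and 145 FPKM in cr at mature green, against 170.5, 193 and 170.5 FPKM in WT at mature green. It fell at breaker in WT (-0.75 ± 0.102 (SE), edgeR adjusted p = 5.79e-05), and the change in cr did not pass (-0.24 ± 0.102, adjusted p = 0.0927) but did without library 2 (0.0351) of cr breaker. Its interaction (0.51 ± 0.144, adjusted p = 0.0355) was lost without library 2 (0.08) of cr breaker, library 1 (0.0701), 2 (0.0849) of WT breaker, library 1 (0.0804), 2 (0.0627), 3 (0.0745) of cr mature green or library 2 (0.0867) of WT mature green.

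Solyc03g081240 (SL4.0 chromosome 3, 46704175 to 46709293, minus strand) was described as APRR9-like after a pepper protein, and its listed Arabidopsis match was APRR5. It stood at 4.5, 5.89 and 4.76 FPKM in cr at breaker, against 4.30, 4.13 and 3.48 FPKM in WT at breaker, and at 5.74, 4.73 and 6.57 FPKM in cr at mature green, against 11.3, 10.4 and 12.6 FPKM in WT at mature green. The WT mature green libraries lay above all others. At mature green it was lower in cr than in WT (-1.01 ± 0.142 (SE), edgeR adjusted p = 0.0025). From mature green to breaker it fell in WT (-1.52 ± 0.147, adjusted p = 3.23e-06). The change in cr did not pass (-0.16 ± 0.145, adjusted p = 0.445), and the interaction did (1.37 ± 0.205, adjusted p = 0.00123). The labels do not give the hour of sampling.

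Solyc10g005030, like APRR5, was lower in cr than in WT at mature green (-0.84 ± 0.217 (SE), edgeR adjusted p = 0.0463), with 2.07, 2.22 and 2.53 FPKM in cr against 5.21, 3.93 and 3.09 FPKM in WT. The call was lost without library 2 (0.0609) of cr breaker, library 1 (0.057), 2 (0.0625) of WT breaker, library 1 (0.142), 2 (0.144), 3 (0.0932) of cr mature green or library 1 (0.154), 2 (0.0869) of WT mature green. Solyc06g061030 (SL4.0 chromosome 6, 36736259 to 36741082, plus strand) stood at 10.9, 5.79 and 7.36 FPKM in cr at breaker, against 3.36, 2.43 and 3.35 FPKM in WT at breaker, and at 10.6, 14.2 and 15.7 FPKM in cr at mature green, against 16.2, 16.4 and 9.73 FPKM in WT at mature green. At breaker it was higher in cr than in WT (1.40 ± 0.269, adjusted p = 0.00225). From mature green to breaker it fell in cr (-0.74 ± 0.247, adjusted p = 0.0399) and in WT (-2.21 ± 0.268, adjusted p = 2.17e-05). The cr call was lost without library 2 (0.15), 3 (0.125) of cr breaker, library 1 (0.0502) of WT breaker or library 2 (0.098), 3 (0.144) of cr mature green. The interaction (1.47 ± 0.362, adjusted p = 0.0183) was lost without library 2 (0.0512) of WT breaker.

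Cytokinin response factors are AP2-type transcription factors downstream of the hormone. Solyc01g008890, CRF3 and the most abundant, ranged from 9.89 to 14.04 FPKM and was called in no comparison. CRF4, Solyc03g007460, stood at 1.46, 2.89 and 2.78 FPKM in cr at breaker, against 3.18, 4.31 and 2.45 FPKM in WT at breaker, and at 0.979, 0.704 and 0.648 FPKM in cr at mature green, against 1.42, 1.13 and 2.27 FPKM in WT at mature green. It rose at breaker in cr (1.61 ± 0.367 (SE), edgeR adjusted p = 0.00563) and in WT (1.04 ± 0.343, adjusted p = 0.0233), the second lost without library 2 (0.106) of WT breaker or library 1 (0.0739), 2 (0.0941) of WT mature green. CRF5, Solyc01g095500, fell at breaker in WT (-1.44 ± 0.522, adjusted p = 0.0359), lost without library 1 (0.0675), 2 (0.132) of WT breaker or library 1 (0.0865), 2 (0.115) of WT mature green. CRF9, Solyc03g119580, was called in no comparison with all libraries in the fit.

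Other genes of these pathways were listed by description too. Of 6 genes for early gibberellin synthesis 3 were tested. At breaker 1 was lower in cr than in WT (33.3%, against 25.0% of all tested genes). Between stages 1 rose in cr (33.3%, against 28.7%), and 1 rose and 1 fell in WT (66.7%, against 48.3%). The interaction was positive for 1 and negative for 1 (66.7%, against 13.1%). The positive one was that of the ent-kaurenoic acid oxidase Solyc01g080900 (0.80 ± 0.206 (SE), edgeR adjusted p = 0.0225). That call was lost without library 2 (0.0545) of WT breaker, library 1 (0.0584), 2 (0.0565) of cr mature green or library 2 (0.0588) of WT mature green. Of 26 GRAS factors tested, 4 were higher and 5 lower in cr than in WT at breaker (34.6%, against 25.0% of all tested genes), and at mature green 1 was lower (3.85%, against 4.34%). Solyc12g099900, SCL3, which in Arabidopsis acts beside DELLA proteins, was higher in cr than in WT at breaker (0.84 ± 0.139, adjusted p = 0.000842) and had a positive interaction (0.93 ± 0.192, adjusted p = 0.00778). Solyc04g014830, like SCL13, was called higher in cr than in WT at breaker (1.92 ± 0.467, adjusted p = 0.00948), lost without library 1 (0.0521) of cr breaker. From mature green to breaker it fell in cr (-2.57 ± 0.376, adjusted p = 0.000333) and in WT (-3.81 ± 0.444, adjusted p = 1.58e-05). Solyc07g065270, like PAT1, was lower in cr than in WT at mature green (-0.68 ± 0.107, adjusted p = 0.00521). Solyc06g076290, like SCL9, rose at breaker in cr (2.35 ± 0.536, adjusted p = 0.00574; 2.96 without library 1 of cr mature green) and in WT (2.35 ± 0.507, adjusted p = 0.00194). Solyc02g085600, like SCL15, rose at breaker in cr (1.41 ± 0.173, adjusted p = 9.75e-05) and in WT (1.62 ± 0.173, adjusted p = 7.65e-06), and Solyc08g041700, a GRAS gene at a mean of 0.475 FPKM, fell at breaker in WT (-2.92 ± 0.682, adjusted p = 0.00325).

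On the cytokinin side, 114 genes were listed by descriptions matching isopentenyltransferases, the enzymes of the first step of synthesis, and 6 were tested. Whether all of the listed genes encode enzymes of that step was not tested. At breaker 1 of the 6 rose in each genotype (16.7%, against 28.7% of all tested genes in cr and 48.3% in WT). All 3 phosphotransfer genes tested passed between stages in both genotypes, 1 higher and 2 lower, where 28.7% of all tested genes passed in cr and 48.3% in WT. Solyc01g098400, like AHP1, fell in cr by the largest amount of the 3 (-2.48 ± 0.457 (SE), edgeR adjusted p = 0.00156), with -3.43 without library 1 of cr breaker. Of 35 genes matched by the words histidine kinase, 1 was higher and 6 lower in cr than in WT at breaker (20%, against 25.0% of all tested genes). At mature green 1 was higher and 1 lower (5.71%, against 4.34%).

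Most of the genes of this list that changed by the largest amounts were other proteins with that ATPase domain. Solyc06g071580, like the Arabidopsis MORC ATPase MORC6, had the largest called differences between genotypes in the list, lower in cr at breaker (-4.23 ± 0.238 (SE), edgeR adjusted p = 6.55e-07) and at mature green (-3.29 ± 0.246, adjusted p = 1.47e-05). The gene like chloroplast HSP90-5, Solyc05g010670, was called higher in cr than in WT at mature green (0.50 ± 0.11, adjusted p = 0.0253), lost without library 1 (0.0938), 2 (0.0664), 3 (0.0659) of cr mature green or library 2 (0.0817), 3 (0.0847) of WT mature green. It had a negative interaction (-1.48 ± 0.156, adjusted p = 0.000168). The 1 gene higher in cr than in WT at breaker was Solyc02g083670, described as histidine kinase 1 (1.0 ± 0.194, adjusted p = 0.00243). Solyc01g087500, like DNA topoisomerase 2 and at a mean of 0.111 FPKM, fell at breaker in cr (-2.13 ± 0.593, adjusted p = 0.0168) and in WT (-2.50 ± 0.697, adjusted p = 0.00951), the first lost without library 2 (0.0672), 3 (0.0792) of cr breaker or library 3 (0.0757) of cr mature green, with a log2 fold change of -3.53 without library 1 of cr breaker. Others were the HSP90 genes Solyc06g036290 (cr over WT at breaker -1.68 ± 0.279, adjusted p = 0.000869) and Solyc07g047790 (-1.01 ± 0.129, adjusted p = 0.000155) and the ethylene receptor gene ETR4, Solyc06g053710, which rose at breaker in cr (1.88 ± 0.27, adjusted p = 0.000284) and in WT (2.21 ± 0.273, adjusted p = 2.54e-05). The cytokinin receptor-like genes Solyc07g047770, Solyc04g008110 and Solyc05g015610 were chosen after their values were seen. Solyc07g047770 fell at breaker in cr (-0.96 ± 0.105, adjusted p = 4.17e-05) and in WT (-0.68 ± 0.104, adjusted p = 0.000139), Solyc04g008110 fell in WT (-0.46 ± 0.109, adjusted p = 0.00372) and was called in cr without library 1 (0.0413) of cr breaker or library 3 (0.0227) of WT breaker, and Solyc05g015610 was called in no comparison.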

How the data were processed

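RNA from tomato pericarp was extracted with Trizol, per the labels' protocols. Tools listed in the submitters' processing notes, with no role stated, are HISAT2 2.0.5 and featureCounts 1.5.0-p3, besides fastp 0.23.1, edgeR 3.22.5 and DESeq2 1.20.0. The authors deposited raw counts for each gene and library and, in a second table, FPKM. The deposited FPKM equal the counts divided by gene length and 1 factor per library, within 1.92% of TMM-scaled library sizes. Chromosome names in the deposited table carry the SL4.0 build. Whether strand was used in counting, and how reads with several matches were handled, is not given in the sources used, so values of adjacent, near-identical or overlapping genes are uncertain.

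Low genes were removed by filterByExpr at a min.count of 10 and a min.total.count of 15; 19664 genes with 99.949% of counts stayed in and were scaled by TMM. Genes were tested with edgeR 4.0.16 (glmQLFit, glmQLFTest; R 4.3.3), with 1 coefficient for each of 4 groups over 12 libraries, Benjamini-Hochberg adjustment within each of 5 comparisons over all genes, and a call at an adjusted p under 0.05. A standard error is the log2 fold change divided by the square root of F. The procedure was tested on simulated data. Replicates differed by more than sampling noise (chi-square per degree of freedom 9.29 to 36.1). Intervals of ratios of counts are exact at 95% and cover counting error only.

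The members and the lists of genes were chosen with earlier results of these data known. Roles follow the gene descriptions, and response regulators were divided by description into type-A, type-B and pseudo-response regulators. Named by rule were, for each comparison and hormone, up to 6 called genes each way of largest change with a mean of at least 1 CPM, the most abundant gene of each role, and every gene of roles with 4 or fewer genes; of other pathway genes, up to 3 called each way by size. Alternatives were upper-quartile or no normalization factors, no filter, DESeq2 1.42.0, only the groups compared, a replicate block, and leaving out each library. No reference genome was used, so no sequence is printed.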

Additional observations from a re-analysis of the deposited data

Results flagged for a closer look

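The change between stages differed between cr and WT by the interaction test (edgeR adjusted p under 0.05) for 14 of 76 genes. That was 18.4%, against 13.1% of all tested genes. Of the gibberellin genes 8 of 26 passed, a share above that of all tested genes. Without the 2 gibberellin genes that reached the count minimum through 1 group only, 7 of 24 passed. Of the cytokinin genes 6 of 50 passed, a share near that of all tested genes. Each of the 14 genes is given as the log2 change at breaker in cr minus that in WT. For gibberellin genes the values were 1.25 for the GA 2-oxidase Solyc10g007570, 0.767 for the receptor Solyc01g098390, -0.794 for the receptor Solyc06g008870 and 3.53 for the DELLA-like gene Solyc10g086380. For GASA peptide genes they were 2.02 for Solyc02g083880, 2.29 for Solyc04g078195, 3.47 for Solyc06g007910 and 1.75 for Solyc11g011210. Solyc06g007910 reached the count minimum only through WT at mature green, the group where it was highest. For cytokinin genes they were 0.942 for Solyc04g008310 and 1.69 for Solyc04g014990, both like zeatin glycosyltransferases, 0.439 for the type-B regulator Solyc01g065540, and 1.37, 0.505 and 1.47 for the pseudo-response regulators Solyc03g081240, Solyc04g049670 and Solyc06g061030. The seed and chlorophyll a-b binding lists also stood higher in cr than in WT at breaker, and their part in these values was not tested. The interaction calls of Solyc10g007570, Solyc06g008870, Solyc06g007910, Solyc01g065540, Solyc04g049670 and Solyc06g061030 were each lost in at least 1 fit that left out 1 library.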

How the results depend on the processing

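Calls of cr against WT at mature green depended most on the processing: DESeq2 gave 5 gibberellin genes against 3, 6 cytokinin genes against 3, and 1452 of all genes against 853, and a fit of only the groups compared gave 5 cytokinin genes. Leaving out 1 library gave 1 to 4 cytokinin calls there and 243 to 1183 of all genes. It gave 8 to 17 cytokinin calls between stages in cr (16 with all libraries), 3691 to 6041 of all genes between stages in cr (5645), and 3 to 7 cytokinin interaction calls (6). Among 7473 values of single genes under the alternatives, 7170 stayed on their side of the threshold, 200 lost a call and 103 gained one. No value called in the fit used here or in the alternative changed direction. Changes of direction in values called in neither fit were not counted. Over all tested genes, no pairing by replicate number was seen. The 18 correlations of same-numbered deviations ran from -0.152 to 0.0799 with 0 above 0.1. A pairing that touched only some of the genes could be missed by this check. With the replicate block, calls of cr against WT at mature green, cr against WT at breaker, the stage change in cr, the stage change in WT, and the interaction were 3, 8, 12, 19 and 8 for gibberellin, 2, 8, 14, 25 and 4 for cytokinin, and 603, 4358, 4941, 8978 and 2044 for all genes. Depth limits genes with few counts, such as Solyc02g094860.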
